A study of Mus musculus with 13 samples.

Results

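The TGF-beta and BMP pathway was followed through 49 genes chosen by symbol, out of 23364 genes listed for every sample of mouse submandibular salivary gland. They are ligands, latency proteins, receptors, activin and inhibin subunits, antagonists, Smad proteins and the Id genes. All 49 symbols were found, and 47 reached 1 FPKM (fragments per kilobase of gene, scaled to the reads of the sample) in at least 1 of the 13 samples and were tested. Fstl3, an activin antagonist, and Smad9, a BMP receptor Smad, did not reach it and are given by level only.

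The study sequenced RNA of whole submandibular glands from C57BL/6 mice at 6 time points. These were the embryonic days E14.5 (3 samples), E16.5 and E18.5 (2 each), postnatal day 5 (P5, 2 samples), and the ages of 4 and 12 weeks (4wk and 12wk, 2 samples each). Glands were pooled, from 3 animals per sample at E14.5 and from 2 per sample at the later embryonic ages. No treatment or transgene was used. The stages compared were embryo (E14.5 to E18.5, 7 samples), neonatal (P5) and adult (4wk and 12wk, 4 samples). The 4wk and 12wk animals were males, and sex was not determined in the embryos. For P5 the study's text differs, naming males in one place and undetermined sex in another, so sex and age cannot be told apart between embryo and adult, nor with certainty between P5 and either.

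As background, TGF-beta, activin and BMP ligands are secreted dimers that bind pairs of type I and type II receptor kinases. The receptors phosphorylate receptor Smads (Smad2 and Smad3 for TGF-beta and activin, Smad1, Smad5 and Smad9 for BMP), which enter the nucleus with Smad4. TGF-beta is secreted in a latent form, bound to latent TGF-beta binding proteins in the matrix, and many BMPs are held back by secreted antagonists. In the embryonic salivary gland, BMP ligands and their antagonists are known to modulate branching of the epithelium.

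The files hold FPKM scaled to the total of each sample. The genes' steps of 1 read gave 5817293 (4wk replicate 1) to 48314162 (P5 replicate 1) reads on genes, and 7957918 in 4wk replicate 2, the other library with few reads. The 10 most abundant genes took 5.9 to 9.3% of FPKM at E14.5 and E16.5, 29.2 and 31.1% at P5, and 48.1 to 61.1% in the adult, and a larger share for these leaves less for all other genes. Values below are therefore median-normalized FPKM, that is FPKM divided by 1 factor per sample (the median ratio to the average sample), between 0.617 and 0.714 in the adult and 1.031 to 1.38 earlier. Against these, the deposited FPKM shift the median log2 fold change of all genes from embryo to adult by -0.80. Values from FPKM as deposited are given beside many of the results below that depend on the choice. E14.5 replicate 1 stood apart from replicates 2 and 3 in several members, and 4wk replicate 1 listed 9612 genes at 0, more than any other library.

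Epithelial markers were present in every sample, with Epcam between 75.6 and 256 median-normalized FPKM. The whole gland also holds other cells, whose markers moved with age. The summed level of 8 mesenchyme and fibroblast markers was 1278 to 1777 in the embryo, 1284 to 1365 at P5, 401 to 422 at 4wk and 109 to 161 at 12wk, and 8 of 8 were lower in the adult than in the embryo. That of 6 endothelial markers was 81.1 to 105 in the embryo and 31.7 to 61.8 in the adult, that of 8 epithelial markers 288 to 505 at E14.5 and 1095 to 1852 later, and that of 4 myoepithelial and smooth muscle markers 37.3 to 272 in the embryo and 345 to 857 in the adult. That of 6 skeletal muscle markers was 112 to 736 at E14.5 and E16.5 and 1.07 to 20.8 later, and 6 of 6 were called lower at P5 and in the adult than in the embryo. That of 5 blood and immune markers was 295 to 2451 at E14.5 and 10.7 to 42.2 later, but the 5 did not all fall. From embryo to adult, 2 of them were called higher and 2 lower (0 and 2 from FPKM as deposited). None of the markers in these lists was at 0 in all samples of a stage. In RNA of a whole gland, fewer cells of a type and less RNA per cell cannot be told apart, and the part of these cells in the results below was not tested.

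Between embryo and adult, 2 of the 47 tested members rose and 13 fell by limma's test (Benjamini-Hochberg adjusted p under 0.1 and a log2 fold change of at least 1 on the log2(normalized FPKM + 1) scale, used for all calls below). This was 31.9% of members, beside 28.4% of all 14650 genes tested (13.8% higher and 14.7% lower). Members that fell thus made up 27.7%, and those that rose 4.26%. Tgfb2 and Ltbp2 were the members that rose, and Fstl1, Bmp7, Gdf10 and Gdf11 fell the most. The median log2 fold change was -0.52 over the members and -0.08 over all genes tested, and 28 members (59.6%, beside 44.1% of all genes) had values that did not overlap between the 7 embryonic and 4 adult samples.

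From embryo to P5, 3 members rose and 2 fell (10.6%, beside 9.45% of all genes, 5.55% higher and 3.9% lower), close to the background. From P5 to adult, 1 rose and 12 fell (27.7%, beside 14.6% of all genes, 6.05% higher and 8.53% lower). The values of 36 members (76.6%, beside 55.8% of all genes) did not overlap in the latter, and those of 12 members (25.5%, beside 41.3%) in the former. The median over the members was -0.17 from embryo to P5 and -0.47 from P5 to adult, where that of all genes was -0.03 and -0.05. These comparisons share samples and are not independent of each other. With the FPKM as deposited, the members that rose and fell were 1 and 31 from embryo to adult (43.6% of all genes, 5.58% higher and 38% lower), 1 and 22 from P5 to adult (23.1% of all genes, 2.31% higher and 20.8% lower), and 2 and 2 from embryo to P5 (12.3% of all genes, 4.14% higher and 8.14% lower). All 13 members that fell from embryo to adult were called lower in both scalings.

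**Figure D1:**
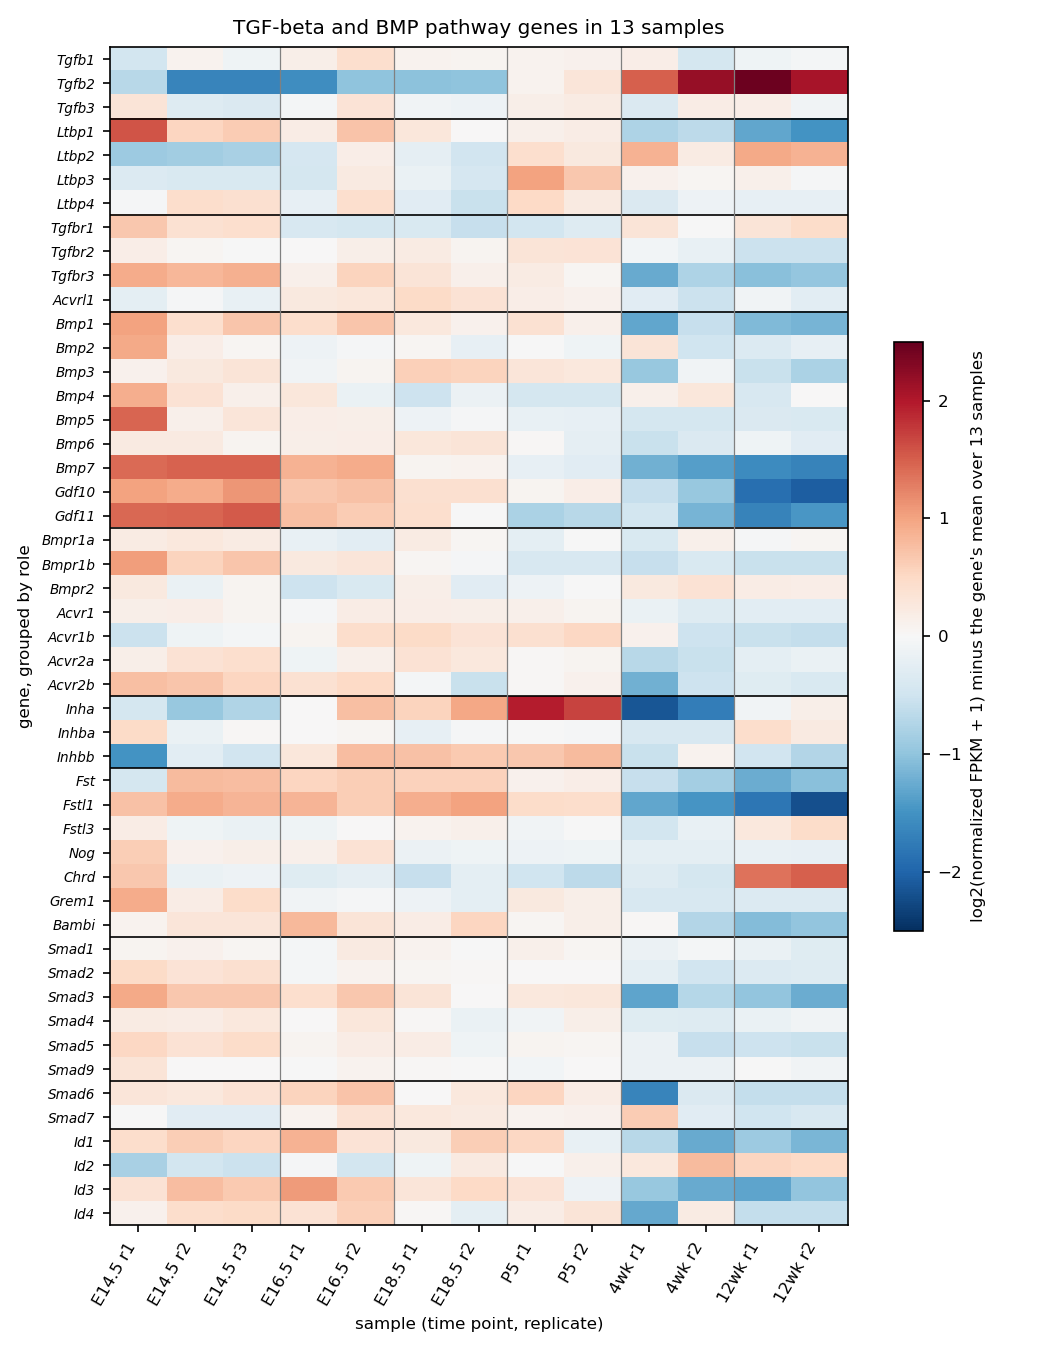
The level of all 49 genes in all 13 samples, as log2(median-normalized FPKM + 1) minus the mean of the gene over the samples, with rows grouped by role from TGF-beta ligands (top) to Id genes (bottom) and columns ordered by age (r1 to r3 are replicates). Red is above and blue below the gene's mean: Tgfb2 is blue in the embryo and red in the adult, and Bmp7, Gdf10, Gdf11, Fstl1 and Tgfbr3 run the other way.

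**Figure D2:**
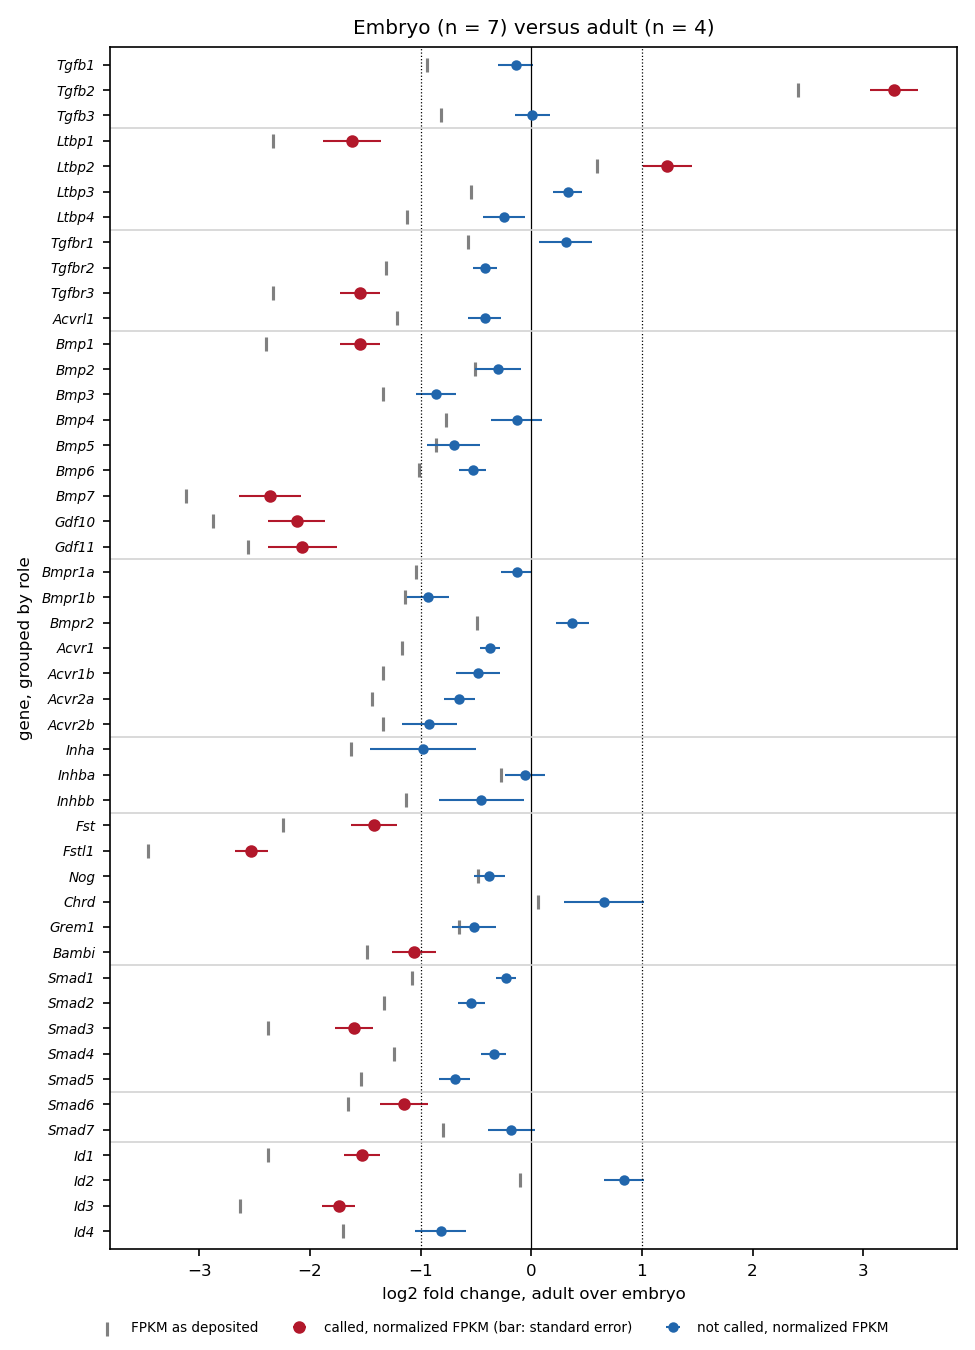
Log2 fold change from embryo (7 samples) to adult (4 samples) for the 47 tested genes, with the standard error as a bar. Red points were called (2 higher, 13 lower) and blue points were not, and the grey marks are the same values from FPKM as deposited, which lie to the left of the points. Dotted lines mark a log2 fold change of 1 in size.

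Among the TGF-beta ligands, Tgfb2 rose in both stage transitions while Tgfb1 and Tgfb3 were not called in any comparison. Tgfb2 lies on chromosome 1 of mm9 (188447065 to 188529871, minus strand). Its median-normalized FPKM was 5.81, 2.51 and 2.52 on E14.5, 2.80 and 4.53 on E16.5, 4.42 and 4.54 on E18.5, 10.7 and 12.7 on P5, 30.3 and 49.4 in the 4wk samples, and 59.3 and 45.4 in those of 12wk. Both P5 samples were above every embryonic sample, and the 4 adult samples were above P5. The mean went from 3.88 ± 1.28 (SD, n = 7) in the embryo to 11.7 ± 1.43 (SD, n = 2) at P5 and 46.1 ± 12.1 (SD, n = 4) in the adult, 11.9-fold above the embryo. The log2 fold change was 1.42 ± 0.28 (SE, limma adjusted p = 0.0063) from embryo to P5, 1.85 ± 0.30 (limma adjusted p = 0.00075) from P5 to adult and 3.28 ± 0.22 (limma adjusted p = 5.4e-08) from embryo to adult, and 2.41 for the last from FPKM as deposited, also called. These 3 calls were kept when any 1 library was left out.

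Tgfb1, the ligand best known from wound repair and immune control, was between 4.52 and 9.11 in the embryo, 6.996 and 7.13 on P5, and between 4.57 and 7.47 in the adult. Tgfb3 was between 6.13 and 10.5 in the embryo, 9.09 and 9.51 on P5, and between 6.11 and 9.38 in the adult. The ranges of embryo and adult overlapped for both genes. From embryo to adult the log2 fold change was -0.14 ± 0.16 (SE) for Tgfb1 and 0.01 ± 0.16 for Tgfb3, and -0.94 and -0.82 from FPKM as deposited, neither of them called. A share within a sample does not depend on the scaling between samples. Of the summed FPKM of the 3 ligands, Tgfb2 held 15.7 to 28% in the embryo, 40 and 43.4% at P5, and 69 to 79.5% in the adult, where Tgfb1 held 7.21 to 17% and Tgfb3 12.4 to 14.8%.

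**Figure D3:**
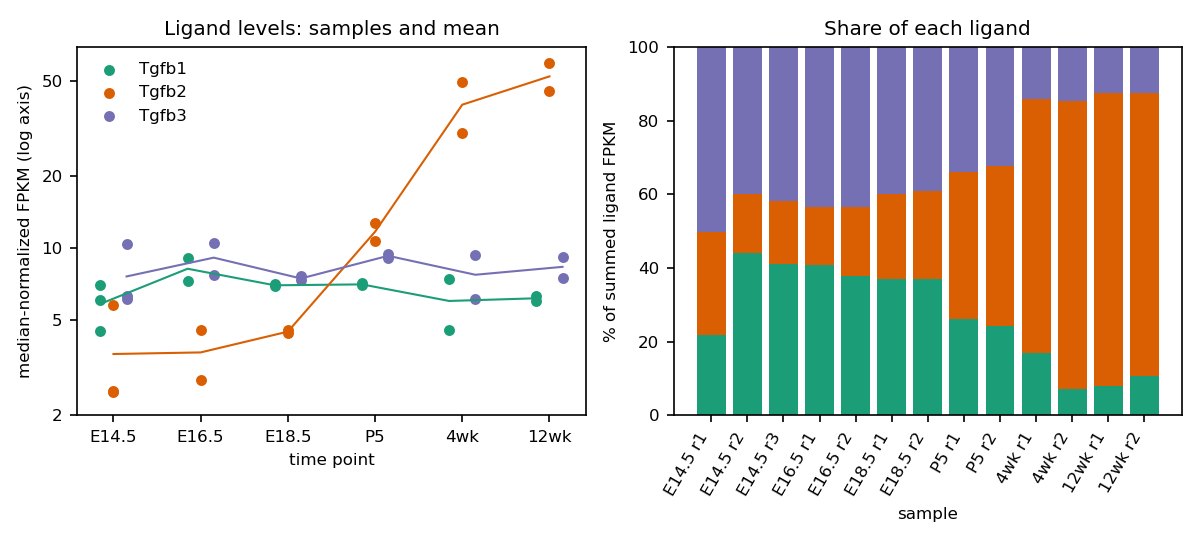
Left, median-normalized FPKM of Tgfb1, Tgfb2 and Tgfb3 on a log axis, with points for samples and a line through the means of the 6 time points. Right, the share of each ligand in their summed FPKM, in percent, for each of the 13 samples. Tgfb2 is the lowest of the 3 in the mean at each embryonic time point and the highest from P5 on, with 69 to 79.5% of the sum in the 4 adult samples.

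The 250 bases before the start of Tgfb1 and Tgfb2 are shown because the levels of these ligands diverged with age. The sequences are from RefSeq on GRCm38.p6, another build than the mm9 of the files, at chr7:25686752-25687001 (plus strand) for Tgfb1 and chr1:186705990-186706239 (minus strand) for Tgfb2. Each is written 5′ to 3′ along the gene and ends at the base before the start. Capitals mark matches, on either strand, to the TATA box (TATAAA), the E-box (CACGTG), a partial cAMP response element (TGACG), the Smad binding element (CAGAC) and a GC-rich Smad element (GGCGCC).
Tgfb1: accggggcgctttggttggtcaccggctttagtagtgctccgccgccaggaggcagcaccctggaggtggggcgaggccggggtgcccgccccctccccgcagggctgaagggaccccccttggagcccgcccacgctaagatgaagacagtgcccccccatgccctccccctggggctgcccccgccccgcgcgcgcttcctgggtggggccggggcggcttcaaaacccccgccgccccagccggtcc
Tgfb2: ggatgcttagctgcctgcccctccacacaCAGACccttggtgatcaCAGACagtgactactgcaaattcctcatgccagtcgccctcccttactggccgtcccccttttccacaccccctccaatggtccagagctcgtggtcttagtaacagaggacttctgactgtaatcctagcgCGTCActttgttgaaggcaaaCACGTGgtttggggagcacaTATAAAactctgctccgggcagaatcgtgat

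In Tgfb2, the TATAAA began 31 bases and the CACGTG 51 bases before the start, the TGACG lay on the other strand and began 72 bases before it, and the CAGAC matches began 221 and 204 bases before it, with no overlap between them. In Tgfb1 none of these letters was found in the window. The share of guanine and cytosine was 53.6% in Tgfb2 and 75.2% in Tgfb1. Of 32851 promoters of the same length, 12.4% held the TATA box letters, 6.02% the E-box, 17.8% the partial cAMP response element, 9.59% the GC-rich Smad element and 42.2% the Smad binding element. Promoters of 35 of the 49 members were in the table.

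The genes named as latent TGF-beta binding proteins moved in different directions, and binding of the ligand was not measured. Ltbp1 fell, Ltbp2 rose and Ltbp3 peaked at P5, while Ltbp4 was called in no comparison. Ltbp1 was 20.3, 9.32 and 10.04 on E14.5, 7.15 and 10.7 on E16.5, 7.65 and 6.18 on E18.5, 6.78 and 7.08 on P5, 3.16 and 3.53 in the 4wk samples, and 1.88 and 1.53 in those of 12wk. All 4 adult samples were below all earlier ones, with a log2 fold change of -1.62 ± 0.26 (SE, limma adjusted p = 0.00013) from embryo to adult. The fall from P5 to adult (-1.21 ± 0.36, limma adjusted p = 0.026) was no longer called without P5 replicate 1 (-1.23, limma adjusted p = 0.14) or without P5 replicate 2 (-1.18, limma adjusted p = 0.15). The share of Ltbp1 in the FPKM of the 4 Ltbp genes was 22.7 to 45.9% in the embryo, 11.9 and 14.9% at P5, and 4.99 to 11% in the adult.

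Ltbp3 was highest at P5, with 28.1 and 22.3, beside 9.74 to 15.9 (median 10.2) in the embryo, 14.7 and 14.04 in the 4wk samples, and 14.8 and 13.2 in those of 12wk. Both P5 samples were above the other 11, but the later fall was not called from P5 to adult or from P5 to 4wk. From FPKM as deposited, 3 of the 4 Ltbp genes were called lower in each of these comparisons (beside 20.8% and 22.1% of all genes). The rise of Ltbp3 from embryo to P5 was 1.11 ± 0.17 (SE, limma adjusted p = 0.0018), and 0.87 and not called from FPKM as deposited. Without P5 replicate 1 it was 0.95, under the fold threshold. Ltbp2 was 0.626 to 2.44 (median 1.18) in the embryo, 3.08 and 2.61 on P5, 4.56 and 2.497 in the 4wk samples, and 4.85 and 4.60 in those of 12wk. Its adult samples lay above all embryonic samples, with a rise of 1.23 ± 0.22 (SE, limma adjusted p = 0.00027), but of 0.59 and not called from FPKM as deposited. Ltbp4 was between 8.67 and 18.3 in the embryo, 19.1 and 15.7 on P5, and between 10.02 and 11.9 in the adult, called lower from embryo to adult only from FPKM as deposited (-1.12).

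Of the 4 TGF-beta receptors, Tgfbr3 fell and none rose. Tgfbr3 (betaglycan) is a coreceptor that presents TGF-beta2 to the signalling receptors and also binds inhibin. Its level was 17.4, 16.1 and 17.0 on E14.5, 9.50 and 13.2 on E16.5, 11.2 and 9.58 on E18.5, 10.1 and 9.01 on P5, 3.06 and 4.64 in the 4wk samples, and 3.71 and 3.94 in those of 12wk. All 4 adult samples were below all earlier ones, and the log2 fold change was -1.55 ± 0.18 (SE, limma adjusted p = 7.4e-06) from embryo to adult and -1.13 ± 0.25 (limma adjusted p = 0.0051) from P5 to adult. Tgfb2 and Tgfbr3 were called in opposite directions in both of these comparisons.

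Tgfbr2 is the type II receptor that binds the ligand first. It was 22.2, 20.4 and 19.6 on E14.5, 19.9 and 21.8 on E16.5, 22.8 and 20.6 on E18.5, 25.0 and 25.4 on P5, 18.7 and 17.2 in the 4wk samples, and 13.3 and 13.3 in those of 12wk. Its log2 fold change from embryo to adult, -0.42 ± 0.11 (SE, limma adjusted p = 0.0041), was under the fold threshold, and -1.31 and called from FPKM as deposited. The type I receptor Tgfbr1 was 19.1 to 23.7 on E14.5, 9.36 to 10.9 from E16.5 to E18.5, 10.2 and 11.3 on P5, and 14.4 to 20.1 in the adult. Acvrl1, a type I receptor of endothelium, was between 5.42 and 9.55 in the embryo, 7.54 and 7.19 on P5, and between 4.21 and 6.12 in the adult, and was also called lower from FPKM as deposited (-1.21).

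Of the 9 genes of the group of BMP and GDF ligands and the protease Bmp1, 4 fell from embryo to adult and none rose. The 4 were 44.4% of the group, beside 14.7% of all genes called lower. Bmp7, a ligand of epithelial and mesenchymal signalling in many branching organs, was lower at each later time point. It was 29.1, 30.3 and 30.2 on E14.5, 19.6 and 20.5 on E16.5, 10.8 and 10.9 on E18.5, 8.71 and 8.29 on P5, 3.92 and 3.31 in the 4wk samples, and 2.77 and 2.52 in those of 12wk. No sample of a time point overlapped those of the next, though the steps within the embryo were under the fold threshold (-0.55 ± 0.10 and -0.83 ± 0.11, SE). The mean was 21.6 ± 8.57 (SD, n = 7) in the embryo, 8.50 ± 0.292 (SD, n = 2) at P5 and 3.13 ± 0.621 (SD, n = 4) in the adult, 6.91-fold under the embryo. The log2 fold change was -2.36 ± 0.28 (SE, limma adjusted p = 8.6e-06) from embryo to adult. The falls from embryo to P5 (-1.15 ± 0.36, limma adjusted p = 0.042) and from P5 to adult (-1.21 ± 0.38, limma adjusted p = 0.034) were not called without P5 replicate 1 (limma adjusted p = 0.25 and 0.18) or without P5 replicate 2 (0.23 and 0.15).

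Gdf10 (also known as Bmp3b) followed a like course, with 22.3, 21.0 and 23.6 on E14.5, 17.4 and 18.1 on E16.5, 14.1 and 14.1 on E18.5, 11.0 and 11.9 on P5, 6.71 and 4.95 in the 4wk samples, and 2.12 and 1.75 in those of 12wk. Each time point was below the one before, with no overlap of samples. The log2 fold change was -2.12 ± 0.26 (SE, limma adjusted p = 1.1e-05) from embryo to adult, -1.48 ± 0.35 (limma adjusted p = 0.0086) from P5 to adult, and -1.21 ± 0.14 (limma adjusted p = 0.00029) in the single step from 4wk to 12wk. Gdf11, a ligand that signals as activin does and is known for patterning in the embryo, was 9.07, 9.23 and 9.89 on E14.5, 5.33 and 4.78 on E16.5, 4.04 and 2.71 on E18.5, 1.18 and 1.32 on P5, 1.73 and 0.674 in the 4wk samples, and 0.186 and 0.368 in those of 12wk. The 4 adult samples held 13, 6, 5 and 12 reads of Gdf11, so the adult levels rest on few reads. Its log2 fold change was -2.07 ± 0.31 (SE, limma adjusted p = 6.7e-05) from embryo to adult and -1.63 ± 0.40 (limma adjusted p = 0.017) from embryo to P5, the latter not called without P5 replicate 1 (limma adjusted p = 0.19) or 2 (0.13).

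Bmp1 is not a BMP but a metalloprotease that cleaves procollagen and the antagonist chordin. It was 33.8, 22.1 and 26.9 on E14.5, 22.6 and 26.8 on E16.5, 19.7 and 17.7 on E18.5, 21.5 and 18.01 on P5, 6.05 and 10.6 in the 4wk samples, and 7.07 and 6.74 in those of 12wk. The adult samples were all below the earlier ones, with -1.55 ± 0.18 (SE, limma adjusted p = 6.3e-06) from embryo to adult and -1.29 ± 0.24 (limma adjusted p = 0.0021) from P5 to adult. The other BMP ligands were low. Bmp3 was 1.53 to 3.07 in the embryo and 0.387 to 1.504 in the adult, Bmp4 1.28 to 5.14 and 1.45 to 2.96, Bmp6 1.49 to 1.96 and 0.599 to 1.20, and Bmp2 0.214 to 1.71 and 0 to 0.766, none of them called, though Bmp3 (-1.34) and Bmp6 (-1.01) were called lower from FPKM as deposited. Bmp5 was 0.243 to 2.71 in the embryo, with 0, 0, 2 and 2 reads in the adult samples. Bmp7 made up 59.6 to 80% of the summed FPKM of Bmp2 to Bmp7 in the embryo, 60.5 and 61.8% at P5 and 38.4 to 47.7% in the adult, where Bmp4 held 22.7 to 34.5% after 6.82 to 12.1% in the embryo.

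The 7 BMP and activin receptors had 0 calls in all 3 stage comparisons and all 5 steps by limma. At an unadjusted p under 0.05 were 6 from embryo to adult, 3 from P5 to adult and 1 from embryo to P5. Of all 14650 genes, 9648, 5596 and 5157 were at such a p in the same order. From FPKM as deposited, 6 of the 7 receptors were called lower from embryo to adult, all except Bmpr2 (beside 38% of all genes). Bmpr1a, the main type I BMP receptor of many epithelia, was the most abundant. It was 36.7, 38.7 and 37.0 on E14.5, 27.7 and 26.5 on E16.5, 36.8 and 33.0 on E18.5, 26.8 and 31.7 on P5, 24.1 and 35.1 in the 4wk samples, and 31.3 and 33.0 in those of 12wk. Embryo and adult overlapped, with a log2 fold change of -0.13 ± 0.14 (SE), though of -1.04 and called from FPKM as deposited. Bmpr2, the type II BMP receptor, was 6.18 to 11.1 in the embryo, 8.42 and 9.22 at P5 and 10.5 to 12.2 in the adult. Bmpr1b, a second type I receptor, was 0.468 to 2.11 in the embryo, 0.135 and 0.129 on P5, and 0 to 0.153 in the adult, where the samples held 0, 4, 1 and 2 reads. Its log2 fold change, -0.93 ± 0.19 (SE), was under the threshold on the scale with 1 FPKM added.

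Of the other genes among the BMP and activin receptors, Acvr1b was 8.66 to 18.6 in the embryo, 17.6 and 19.1 on P5, and 8.33 to 14.1 in the adult. Acvr2a was 6.26 to 9.53 in the embryo, 6.99 and 7.26 at P5 and 3.81 to 5.94 in the adult, Acvr1 6.20 to 7.31, 7.01 and 6.72, and 4.88 to 5.55, and Acvr2b 0.553 to 2.86, 1.34 and 1.46, and 0 to 0.870. The adult samples of Acvr1 and Acvr2a lay below all embryonic samples, but with log2 fold changes of -0.37 ± 0.09 and -0.65 ± 0.14 (SE) both were under the fold threshold.

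Inha encodes the alpha subunit, which joins a beta subunit to make inhibin, while pairs of beta subunits make activin. Inha was called in 4 of the 5 steps between neighbouring time points, more than any other member. It was 3.86, 2.42 and 2.88 on E14.5, 5.61 and 10.1 on E16.5, 8.65 and 11.9 on E18.5, 24.5 and 20.03 on P5, 0.4935 and 0.974 in the 4wk samples, and 5.15 and 6.23 in those of 12wk. Both P5 samples were above all others and both 4wk samples, with 3 and 7 reads, below all others. Inha lies on chromosome 1 of mm9 (75503652 to 75506941, plus strand). From E14.5 to E16.5 it rose by 1.09 ± 0.24 (SE, log2, limma adjusted p = 0.013), from E18.5 to P5 by 1.05 ± 0.27 (limma adjusted p = 0.029) and from 4wk to 12wk by 1.96 ± 0.27 (limma adjusted p = 0.00092), and from P5 to 4wk it fell by 3.75 ± 0.27 on the log2 scale (limma adjusted p = 3.7e-06).

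Between stages, Inha rose from embryo to P5 (1.79 ± 0.61, limma adjusted p = 0.057) and fell from P5 to adult (-2.77 ± 0.66, SE, limma adjusted p = 0.0081). The rise was lost without P5 replicate 1 (limma adjusted p = 0.33) or 2 (0.23), with a pseudocount of 0.1 (0.11) and under an adjusted p of 0.05. The step from E14.5 to E16.5 was 0.97 without E14.5 replicate 2 and 0.72 without E16.5 replicate 2, under the fold threshold. The step from E18.5 to P5 was 0.91 from FPKM as deposited, 0.84 without E18.5 replicate 1 and 0.91 without P5 replicate 1, and none of these was called. The step from P5 to 4wk was called in each of the alternatives run for it.

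Inhbb, the beta B subunit, was 0.763, 3.12 and 2.54 on E14.5, 5.07 and 7.50 on E16.5, 7.26 and 6.77 on E18.5, 6.97 and 7.61 on P5, 2.38 and 4.31 in the 4wk samples, and 2.54 and 1.99 in those of 12wk. The rise from E14.5 to E16.5 was 1.28 ± 0.33 (SE, log2, limma adjusted p = 0.023), but 0.91 without E14.5 replicate 1, its lowest sample, and 1.03 (limma adjusted p = 0.13) without E16.5 replicate 2. Adult samples were all below P5, and the fall of -1.16 ± 0.52 (SE) was not called (limma adjusted p = 0.12), but it was from FPKM as deposited (-1.64). Inhba, the beta A subunit, stayed under 1, with 0.154 to 0.834 in the embryo, 0.311 and 0.301 on P5, 0 reads in both 4wk samples, and 0.792 and 0.545 in those of 12wk. None of the 3 subunits was called from embryo to adult, but 2 were called lower from FPKM as deposited (beside 38% of all genes).

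Of the 7 antagonists, 6 were tested. From embryo to adult 3 of them fell (50%, beside 14.7% of all genes), and none rose between stages. Fstl1, a secreted follistatin-like glycoprotein made by mesenchymal cells, was the most abundant of the 49 members in the embryo. It was 181, 206 and 195 on E14.5, 195 and 167 on E16.5, 205 and 217 on E18.5, 148 and 148 on P5, 43.5 and 38.3 in the 4wk samples, and 30.3 and 22.9 in those of 12wk. The groups did not overlap, and the adult mean of 33.7 ± 9.05 (SD, n = 4) was 5.79-fold under the embryonic 195 ± 16.9 (SD, n = 7). The log2 fold change was -2.53 ± 0.15 (SE, limma adjusted p = 2.2e-08) from embryo to adult and -2.14 ± 0.21 (limma adjusted p = 1.5e-05) from P5 to adult. Fstl1 held 22.6 to 28.9% of the summed FPKM of all 49 members in the embryo, 20.9 and 21.2% at P5 and 4.64 to 9.2% in the adult. The mesenchyme markers given above fell over the same ages, and their part in this result was not tested.

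Fst (follistatin), which binds activin, was 8.33, 21.0 and 20.7 on E14.5, 17.4 and 18.49 on E16.5, 17.9 and 17.8 on E18.5, 12.7 and 13.3 on P5, 7.52 and 6.01 in the 4wk samples, and 4.37 and 5.14 in those of 12wk. E14.5 replicate 1 was far below the other embryonic samples but still above all adult ones, and the log2 fold change from embryo to adult was -1.42 ± 0.21 (SE, limma adjusted p = 6.6e-05). The fall from P5 to adult was -1.07 ± 0.29 (limma adjusted p = 0.017), and was lost without P5 replicate 1 (-1.10, limma adjusted p = 0.11), P5 replicate 2 (-1.04, 0.12) or 12wk replicate 1 (-0.98). Bambi, a receptor-like protein without a kinase that blocks TGF-beta and BMP receptors, was 1.69 to 3.45 (median 2.13) in the embryo, 1.62 and 1.81 on P5, 1.58 and 0.525 in the 4wk samples, and 0.2001 and 0.276 in those of 12wk. Its log2 fold change of -1.06 ± 0.20 (SE, limma adjusted p = 0.00051) was near the threshold and fell short of it without 12wk replicate 1 (-0.94), 12wk replicate 2 (-0.98) or E16.5 replicate 1 (-0.97).

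Chrd (chordin), a BMP antagonist and substrate of Bmp1, was 3.30, 1.42 and 1.47 on E14.5, 1.19 and 1.32 on E16.5, 0.822 and 1.28 on E18.5, 0.922 and 0.730 on P5, 1.18 and 0.994 in the 4wk samples, and 5.95 and 6.62 in those of 12wk. Both 12wk samples were above all others, with 290 and 390 reads beside 16 in each 4wk sample, and the step from 4wk to 12wk was 1.81 ± 0.25 (SE, log2, limma adjusted p = 0.0011) and 1.57 from FPKM as deposited, also called. With both ages as 1 adult group, the change from embryo to adult was not called (0.66 ± 0.36, SE). Chrd shares exon bases with Thpo on the opposite strand, and reads assigned to more than 1 gene were dropped. The other antagonists were at low levels. Nog (noggin) was 0.0737 to 0.824 in the embryo and had 0, 0, 1 and 1 reads in the adult samples, Grem1 (gremlin) 0.115 to 1.51 with 0, 0, 1 and 1 reads, and Fstl3 0.220 to 0.554 in the embryo and 0 to 0.882 in the adult.

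**Figure D4:**
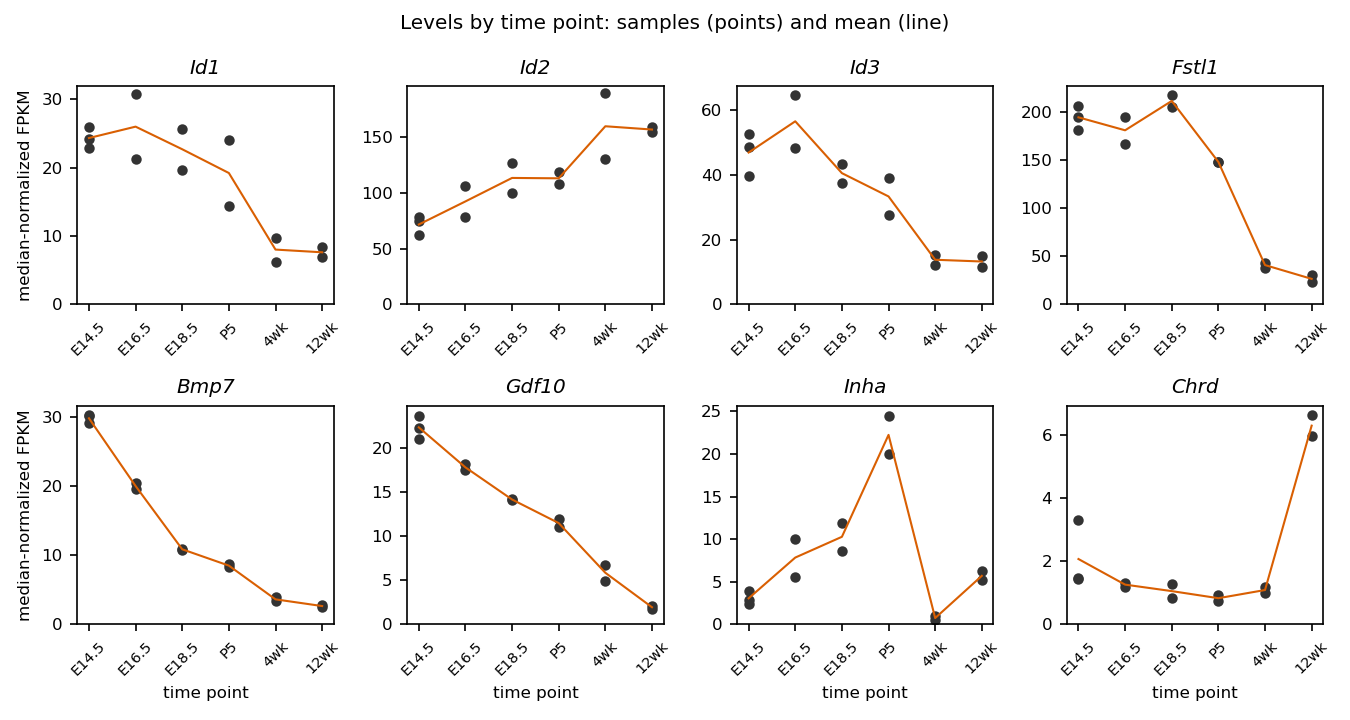
Median-normalized FPKM of 8 genes by time point, with points for samples and a line through the means. Each panel has its own linear axis from 0. Id1, Id3, Fstl1, Bmp7 and Gdf10 are lowest in the adult, Id2 is highest there, Inha peaks at P5 (24.5 and 20.03) and is lowest at 4wk (0.4935 and 0.974), and Chrd is highest at 12wk (5.95 and 6.62).

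Among the receptor Smads and Smad4, Smad3 fell and the other 4 tested genes were not called. Smad3, which carries the TGF-beta and activin signal, was 19.3, 15.8 and 15.7 on E14.5, 12.9 and 15.8 on E16.5, 12.1 and 9.55 on E18.5, 11.6 and 11.7 on P5, 3.22 and 5.36 in the 4wk samples, and 4.28 and 3.45 in those of 12wk. Adult samples were below all earlier ones, with -1.60 ± 0.17 (SE, limma adjusted p = 3.8e-06) from embryo to adult and -1.34 ± 0.24 (limma adjusted p = 0.0014) from P5 to adult. Smad2, which carries the same signal, was 6.23 to 9.33 in the embryo, 6.48 and 6.52 on P5, and 4.34 to 5.26 in the adult, a log2 fold change of -0.54 ± 0.12 (SE). Smad3 made up 59 to 69.5% of the FPKM of both in the embryo, 64.1 and 64.3% at P5, and 37.9 to 55.2% in the adult.

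Smad4, the partner of all receptor Smads and the most abundant of the group, was 26.8, 26.4 and 27.9 on E14.5, 23.1 and 28.2 on E16.5, 23.3 and 20.4 on E18.5, 21.7 and 25.6 on P5, 18.3 and 18.1 in the 4wk samples, and 20.4 and 21.4 in those of 12wk. Smad1 was 9.69 to 11.9 in the embryo and 7.996 to 9.69 in the adult, Smad5 11.3 to 17.98 and 7.92 to 11.0, and Smad9 0.0948 to 0.389 and 0 to 0.1002. From FPKM as deposited, Smad1, Smad2, Smad4 and Smad5 were also called lower from embryo to adult (log2 fold changes of -1.08, -1.33, -1.24 and -1.54).

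The inhibitory Smads block the receptors and are themselves induced by the pathway. Smad7 was 2.41, 1.82 and 1.83 on E14.5, 2.67 and 3.42 on E16.5, 3.12 and 3.04 on E18.5, 2.65 and 2.74 on P5, 4.39 and 1.83 in the 4wk samples, and 1.45 and 1.61 in those of 12wk, and was not called. Smad6 was 2.85, 2.77 and 3.01 on E14.5, 3.605 and 4.11 on E16.5, 2.13 and 2.77 on E18.5, 3.51 and 2.55 on P5, 0 and 1.44 in the 4wk samples, and 1.06 and 1.07 in those of 12wk. The adult samples were below all earlier ones, with -1.15 ± 0.22 (SE, limma adjusted p = 0.0005) from embryo to adult and -1.16 ± 0.30 (limma adjusted p = 0.014) from P5 to adult. Smad6 had 0 reads in 4wk replicate 1, beside 21 in replicate 2. Without 4wk replicate 1 the log2 fold changes were -0.86 and -0.87, and with 12wk as the only adult samples -0.94 and -0.96, all under the fold threshold. The fall from P5 to adult was also lost without P5 replicate 1 (-0.98, limma adjusted p = 0.16).

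The Id genes encode inhibitors of basic helix-loop-helix factors and are known targets of BMP signalling, though other signals act on them too. Id1 and Id3 fell while Id2 did not. Id1 was 22.8, 25.9 and 24.2 on E14.5, 30.7 and 21.3 on E16.5, 19.7 and 25.7 on E18.5, 24.03 and 14.4 on P5, 9.77 and 6.26 in the 4wk samples, and 8.34 and 6.90 in those of 12wk. Id3 was 39.7, 52.5 and 48.4 on E14.5, 64.7 and 48.3 on E16.5, 37.6 and 43.4 on E18.5, 38.9 and 27.7 on P5, 15.4 and 12.2 in the 4wk samples, and 11.6 and 14.9 in those of 12wk. All adult samples of both genes were below all earlier ones. From embryo to adult the log2 fold change was -1.53 ± 0.16 (SE, limma adjusted p = 3.2e-06) for Id1 and -1.74 ± 0.15 (limma adjusted p = 7.1e-07) for Id3. From P5 to adult it was -1.17 ± 0.22 (limma adjusted p = 0.0021) for Id1 and -1.23 ± 0.21 (limma adjusted p = 0.0012) for Id3, and without P5 replicate 1 it was -0.81 and -0.99, under the fold threshold.

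Id2 was 61.9, 78.8 and 74.5 on E14.5, 106 and 78.6 on E16.5, 100.4 and 127 on E18.5, 108 and 118 on P5, 130 and 190 in the 4wk samples, and 159 and 155 in those of 12wk. The adult samples were above all earlier ones in median-normalized FPKM, with a log2 fold change of 0.84 ± 0.18 (SE, limma adjusted p = 0.0012) from embryo to adult that was under the fold threshold, while from FPKM as deposited it was -0.10, so its direction depends on the scaling. Its share within each sample does not. Of the summed FPKM of the 4 Id genes, Id2 held 43.1 to 60.2% in the embryo, 56.6 and 64.8% at P5 and 80.3 to 83.6% in the adult, while Id3 held 20.6 to 28.9%, 15.2 and 20.4%, and 5.33 to 9.51%. Id2 also held 27.5 to 34.1% of the summed FPKM of all 49 members in the adult, after 8.21 to 16.8% in the embryo. Id4 was 14.6 to 27.2 in the embryo, 20.03 and 22.3 on P5, 6.67 and 20.5 in the 4wk samples, and 11.2 in both 12wk samples, and was called (-1.70 from embryo to adult) only from FPKM as deposited.

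The 250 bases before the start of Id2 and Id3 are shown because these members diverged, with the same source, build, orientation and letters in capitals as for the ligands. They lie at chr12:25096093-25096342 (minus strand) for Id2 and chr4:136143572-136143821 (plus strand) for Id3.
Id2: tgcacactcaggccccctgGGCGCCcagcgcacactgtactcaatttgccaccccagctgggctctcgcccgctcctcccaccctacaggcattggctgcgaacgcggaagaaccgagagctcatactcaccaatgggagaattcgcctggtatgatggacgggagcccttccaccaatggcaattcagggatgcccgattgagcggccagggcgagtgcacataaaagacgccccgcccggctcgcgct
Id3: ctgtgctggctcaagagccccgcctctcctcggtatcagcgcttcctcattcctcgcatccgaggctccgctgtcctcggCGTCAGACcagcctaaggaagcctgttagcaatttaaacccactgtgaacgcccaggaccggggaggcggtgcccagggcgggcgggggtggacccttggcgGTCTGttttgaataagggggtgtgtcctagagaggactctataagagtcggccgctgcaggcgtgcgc

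Id2 held GGCGCC from 231 bases before the start, found in 9.59% of all promoters. Id3 held TGACG on the other strand from 170 bases before the start, overlapping a CAGAC from 167 bases before it, and a second CAGAC on the other strand from 68 bases before it. The share of guanine and cytosine was 62.8% in both. These are matches of letters and do not show binding.

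Between neighbouring time points, from E14.5 to E16.5, 2 members rose and none fell (4.26%, beside 4.39% of all genes, 3.64% higher and 0.751% lower), namely Inha and Inhbb. From E16.5 to E18.5, 0 members were called by limma (beside 2.48% of all genes, 1.32% higher and 1.17% lower). At an unadjusted p under 0.05 were 3230 of all 14650 genes and 7 of the 47 tested members, and no member was called with any alternative. From E18.5 to P5, 3 rose and none fell (6.38%, beside 4.16% of all genes, 2.37% higher and 1.79% lower), namely Ltbp3 (1.13 ± 0.19, SE), Tgfb2 (1.21 ± 0.33) and Inha. The step of Tgfb2 was not called without any 1 of the 4 samples at these ages (limma adjusted p = 0.15 to 0.19), and that of Ltbp3 was 0.99 from FPKM as deposited, 0.97 without P5 replicate 1 and 1.00 without E18.5 replicate 2 (under the threshold before rounding), none of them called.

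From P5 to 4wk, 1 member rose and 9 fell (21.3%, beside 15.1% of all genes, 6.37% higher and 8.72% lower), and from 4wk to 12wk 2 rose and 1 fell (6.38%, beside 6.87%, 3.62% higher and 3.24% lower). Tgfb2 rose from P5 to 4wk by 1.65 ± 0.33 (SE, log2, limma adjusted p = 0.003), and by 1.00 with no call from FPKM as deposited. The 9 that fell were Inha, Fstl1 (-1.83 ± 0.15), Smad6 (-1.36 ± 0.32), Smad3 (-1.29 ± 0.20), Id3 (-1.20 ± 0.22), Bmp1 (-1.19 ± 0.23), Id1 (-1.15 ± 0.26), Tgfbr3 (-1.14 ± 0.18) and Bmp7 (-1.04 ± 0.11). Without 4wk replicate 1, the shallowest library, Smad6 (-0.71), Smad3 (-0.98), Bmp1 (-0.82) and Tgfbr3 (-0.88) were under the fold threshold. Bmp7 (-0.96) and Id1 (-0.87) were under it without 4wk replicate 2, and Id1 (-0.79) and Id3 (-0.96) without P5 replicate 1. From FPKM as deposited, none rose and 23 fell from P5 to 4wk (24.3% of all genes, 2.19% higher and 22.1% lower). Over the 8 comparisons, 19 members were called at least once and 28 in none.

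Of 54 further genes of the pathway, 38 were tested, and 6 rose and 8 fell from embryo to adult, 2 rose and 9 fell from P5 to adult, and 5 rose and 1 fell from embryo to P5. These were 36.8%, 28.9% and 15.8% of those tested, beside 28.4%, 14.6% and 9.45% of all genes. From FPKM as deposited, 2 rose and 14 fell, 1 rose and 13 fell, and 2 rose and 6 fell in the same order. These were 42.1%, 36.8% and 21.1%, beside 43.6%, 23.1% and 12.3% of all genes. The balance from embryo to P5 turned with the scaling, as it did over all genes. Of all genes, 5.55% rose and 3.9% fell in this comparison when normalized, and 4.14% rose and 8.14% fell as deposited. Among those that rose in the adult was Itgb6, a subunit of the integrin that activates latent TGF-beta. Itgb6 was 0.131 to 0.749 in the embryo, 0.677 and 0.869 at P5 and 4.17 to 6.74 in the adult, with a log2 fold change of 2.12 ± 0.15 (SE, limma adjusted p = 1e-07) from embryo to adult, and 1.53 and called from FPKM as deposited. Gdf15, a stress-responsive ligand, rose by 1.82 ± 0.28, Crim1, a membrane protein that binds BMPs, by 1.63 ± 0.12, and Gdf5, a BMP family ligand, by 1.53 ± 0.49, of which only Gdf15 was called from FPKM as deposited.

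The fibrillins, matrix proteins to which latent TGF-beta complexes attach, fell the most. Fbn2 was 11.4 to 28.9 in the embryo, 6.00 and 5.30 at P5 and 0 to 0.602 in the adult, with -3.97 ± 0.21 (SE, limma adjusted p = 8.8e-09) from embryo to adult and -1.44 ± 0.27 (limma adjusted p = 0.0059) from embryo to P5. Fbn1 fell by 2.69 ± 0.26 on the log2 scale from embryo to adult, the BMP antagonist Chrdl1 by 2.18 ± 0.26 and the corepressor Tgif2 by 1.95 ± 0.25. From embryo to P5, Gdf5 (1.60 ± 0.62, limma adjusted p = 0.088), Htra1 (1.21 ± 0.38), a secreted protease, and Tgfbi (1.11 ± 0.25), a matrix protein induced by TGF-beta, rose. All 3 were lost without P5 replicate 1 or 2 and from FPKM as deposited (1.40, 0.96 and 0.87). The rise of Gdf5 was the least stable. It was also lost without any 1 of the E14.5 samples, without 12wk replicate 2, with no filter, with a pseudocount of 0.1 and with a replicate block.

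**Figure D5:**
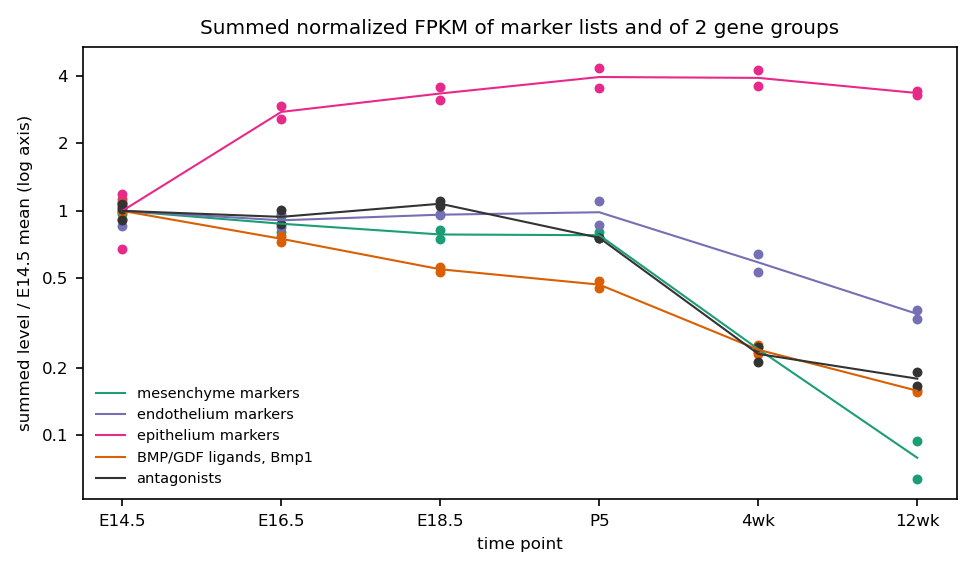
Summed median-normalized FPKM of 3 marker lists and of 2 groups of pathway genes, divided by the mean of the 3 E14.5 samples, on a log axis, with points for samples and lines through the means. Epithelial markers are above their E14.5 level at all later time points, while mesenchyme markers, endothelial markers, the BMP and GDF ligands with Bmp1, and the antagonists (mostly Fstl1) are below it at 4wk and 12wk.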

How the data were processed

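RNA of 13 submandibular gland samples was sequenced as single 50 bp reads and, per the labels and the study's methods, aligned to mm9 with TopHat2 2.0.13 and Bowtie2 2.2.6 and assigned to genes with featureCounts, with reads at more than 1 place or in more than 1 gene dropped. The authors deposited FPKM for 23364 genes per sample. The study describes a normalization by size factors, but the deposited FPKM behave as scaled to the total reads of each sample.

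From these, each sample was divided by its median ratio to the geometric mean over 13039 genes above 0 in all samples. Values were tested as log2(normalized FPKM + 1) for the 14650 genes with at least 1 deposited FPKM in at least 1 sample. The test was limma 3.58.1 with a variance trend (R 4.3.3), Benjamini-Hochberg adjustment over all genes tested, adjusted p under 0.1 and a log2 fold change of at least 1. A fold change on this scale understates that of low genes. One model had 3 stages and another 6 time points, over all 13 samples. The test was checked on simulated data with large changes in genes above low levels and no differences between ages within a stage. That check does not cover changes near the fold threshold, low genes or stages of mixed ages. Read numbers were recovered from the steps of FPKM, with values within 0.01 of a whole number taken as whole. At 3 reads on 1 kb a gene has 0.057 (P5 replicate 1) to 0.722 (4wk replicate 1) normalized FPKM.

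Genes named were all members, and up to 4 further pathway genes per direction and stage comparison. A gene that this rule names is not reported here. The members and lists were chosen with earlier results of these data known. The samples of a time point are separate biological samples per the labels, though those of the embryo are pools. Gene positions are from GENCODE vM1 (mm9), matched by name for 21203 genes. Alternatives were the FPKM as deposited, a pseudocount of 0.1, other filters, no variance trend, other sets of samples, stage means, a replicate block and leaving out each library. Tables and figures used Python 3.11.15, numpy 2.4.6, pandas 2.3.3 and matplotlib 3.10.9.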

Additional observations from a re-analysis of the deposited data

Results flagged for a closer look

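In 94 groups of 4 or 7 samples (a gene in the embryo or the adult), 10 had 1 sample apart from the rest by Dixon's gap test. Chance flags about 1 in 20 groups, and the embryo group mixes 3 ages. Of the 10, 5 were in E14.5 replicate 1. In this library Bmp2 (1.71, others 0.214 to 0.582), Bmp5 (2.71, others 0.243 to 0.68), Inhba (0.834, others 0.154 to 0.368) and Chrd (3.3, others 0.822 to 1.47) were the highest of the embryo in normalized FPKM, and Fst (8.33, others 17.4 to 21) the lowest. Ltbp3 was highest in E16.5 replicate 2 (15.9, others 9.74 to 12).

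In the adult, Acvr1b (14.1, others 8.33 to 8.88) and Smad5 (11, others 7.92 to 8.25) were highest in 4wk replicate 1, the library with the fewest reads. In 4wk replicate 2, Ltbp2 was lowest (2.5, others 4.56 to 4.85) and Bmpr1b highest (0.153, others 0 to 0.0208), the latter from 4 reads. The causes were not tested.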

How the results depend on the processing

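No member that was called changed direction under any alternative. From FPKM as deposited, called members numbered 32 in place of 15 from embryo to adult, 23 in place of 13 from P5 to adult and 23 in place of 10 from P5 to 4wk, and 5 of 51 calls over all comparisons were lost. A pseudocount of 0.1 gave 22 called members in place of 15 from embryo to adult and 16 in place of 13 from P5 to adult. From embryo to P5 it gave 6 in place of 5. In the steps it gave 4 calls from E14.5 to E16.5, 5 from E18.5 to P5, 16 from P5 to 4wk and 6 from 4wk to 12wk. The cause was not tested.

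Leaving out each library in turn gave 1 to 5 called members from embryo to P5, 7 to 17 from P5 to adult, 14 to 19 from embryo to adult, 0 to 3 from E14.5 to E16.5, 0 from E16.5 to E18.5, 0 to 3 from E18.5 to P5, 7 to 12 from P5 to 4wk and 3 to 7 from 4wk to 12wk. For the further pathway genes these ranges were 1 to 7, 7 to 12 and 12 to 15 for the 3 stage comparisons. Without P5 replicate 1, called members numbered 1 from embryo to P5, 7 from P5 to adult and 0 from E18.5 to P5, and further genes 1 and 7 in the first 2 of these. Called members numbered 2 from embryo to P5 without P5 replicate 2, 1 from E18.5 to P5 without E18.5 replicate 1, and 7 from 4wk to 12wk without 4wk replicate 2. From E14.5 to E16.5 they numbered 1 without E14.5 replicate 1 or 2, and 0 without E16.5 replicate 2. Where a time point is left with 1 sample, that sample is assumed to vary like the others. Removing a library that is in neither group compared leaves the group means nearly unchanged. Only libraries of the compared groups therefore put a call to the test. All calls lost among members, in 24 member and comparison pairs, were lost without such a library.

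Samples with the same replicate number did not deviate together (mean correlation -0.012 over 30 pairs, 0.009 over 40 pairs of different numbers). With a replicate block, called members numbered 4, 13 and 16 in the stage comparisons and 2, 0, 3, 10 and 3 in the steps, and the rise of Inha from embryo to P5 was the call lost among members. With 12wk as the only adult samples, an alternative chosen after seeing the data, called members numbered 5, 14 and 16, and 31 of 33 calls were kept, both lost ones being those of Smad6. No filter, 1 FPKM in 2 samples and no variance trend lost none of the 51 calls.

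P5 and the postnatal ages have 2 samples each, so a call there rests on few values. The 4wk libraries were the shallowest. In 4wk replicate 1, 3 reads on a gene of 1 kb were 0.722 normalized FPKM, and less on a longer gene. A gene at 0 there can therefore still be expressed at a low level.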
